A study of Mus musculus with 15 samples.

Results

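Ogn, Omd, Aspn and Ecm2 lie side by side on mouse chromosome 13 and encode leucine-rich repeat proteins of the extracellular matrix, and Angptl7, Angptl2, Angptl4 and Angptl6 belong to the angiopoietin-like family of secreted factors. These 8 genes were chosen from the values of the present arrays: Ogn and Angptl7 because they stood far higher with wild-type Twist1 than with an empty vector, the others as chromosomal neighbours or relatives of these. A gene counts as measured where a probe set carries its symbol and no other in the platform annotation. By this rule 7 of the 8 genes were measured, with exactly 1 probe set each, out of 19297 genes in the series. No probe set was matched to Angptl2, which was not analysed here.

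Small leucine-rich proteoglycans are secreted proteins that bind collagen fibrils, set their diameter and spacing, and hold growth factors of the TGF-beta and BMP family in the matrix. Osteoglycin (Ogn), osteomodulin (Omd) and asporin (Aspn) belong to this family and are best known from bone, cartilage, tendon and vessel wall, and Ecm2 encodes a related matrix protein. Angiopoietin-like factors share a coiled-coil and a fibrinogen-like domain with the angiopoietins but do not bind the receptor Tie2. Angptl4 inhibits lipoprotein lipase and is a target of the lipid-sensing PPAR factors, Angptl7 is known from the cornea and the outflow tissue of the eye, and Angptl6 is a circulating factor made mainly in the liver.

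The arrays are of Myc-CaP cells, a line from a prostate tumour of a mouse with a Myc transgene, and the labels give 5 groups of 3 arrays. The VEC group carries an empty vector, the WT group wild-type Twist1, and the remaining groups the Twist1 forms AQA, DQD and F191G, of which F191G is mutated in the Twist box, a conserved stretch near the end of the protein. Twist1, a bHLH transcription factor of the developing mesoderm that can drive epithelial cells toward a mesenchymal state, binds short DNA motifs called E-boxes. All 5 groups were transfected, selected and grown until confluent. The labels do not say whether selection gave pools or clones, which promoter drove Twist1, or whether replicates A, B and C are separate cultures, so the spread behind each p-value is that among arrays and may be technical.

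Values are deposited log2 intensities, where a difference of 1 is a doubling, and levels are mean ± SD of 3 arrays. The Twist1 probe set itself read 6.45, 6.71 and 6.13 in VEC (replicates A, B and C), 6.77, 6.85 and 6.75 in WT, 6.87, 6.41 and 6.75 in AQA, 6.62, 6.74 and 6.97 in DQD and 6.65, 6.85 and 6.76 in F191G. All WT arrays lay above all VEC arrays, whereas AQA replicate B, DQD replicate A and F191G replicate A lay below the highest VEC array. The stretch of Twist1 that these probes read is not stated, and the design text speaks of scaling by the Twist1 level without giving its form, and the labels therefore cannot be checked with them.

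A few arrays stood apart over all genes, and they carry weight below. Pairwise correlations ran from 0.969 to 0.998, the lowest with WT replicate A, and from 0.990 upward without it. WT replicate B and AQA replicate B deviated from their group means in opposite directions (r = -0.8496 over 19297 genes), the lowest of 30 same-letter pairs. Other pairs with WT did so too. For WT replicate A, r was -0.70 with F191G, -0.58 with DQD and -0.50 with AQA replicate A. For WT replicate C the same pairs gave -0.30, -0.06 and 0.03. WT replicate B correlated with the AQA arrays at 0.996 to 0.997, and with its own group at 0.989 to 0.998. AQA replicate B correlated with the WT arrays at 0.987 to 0.997 and with its own group at 0.996 to 0.997. Whether the labels of these arrays were exchanged cannot be told from the files. The labels are used as given, and an exchange would alter every WT and AQA mean below.

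The 4 genes at the Ogn locus run in the order Ecm2 (chr13:49504810-49532789), Aspn (chr13:49544443-49567565), Omd (chr13:49582462-49592612) and Ogn (chr13:49608015-49624501) in the RefSeq annotation of GRCm38.p6. All lie on the plus strand and inside the span of Cenpp, a kinetochore protein gene (chr13:49464025-49652950). Angptl7 (chr4:148495181-148500462, minus strand) lies inside the span of the kinase gene Mtor (chr4:148448582-148557685). Angptl2 is on chromosome 2 (chr2:33215951-33247725), Angptl4 on chromosome 17 (chr17:33774900-33781575) and Angptl6 on chromosome 9 (chr9:20873808-20879822). The sources used here do not name the build behind the array.

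The promoters of Ogn, of Angptl7, whose values ran closest to those of Ogn, and of Omd, the nearest gene to Ogn in the cluster, are shown from 250 bases before to 50 bases after the start (RefSeq, GRCm38.p6, each on its own gene's strand, Ogn at chr13:49607765-49608064, Angptl7 at chr4:148500413-148500712 and Omd at chr13:49582212-49582511). Capitals mark E-boxes, CANNTG, which reads as CANNTG on both strands, and no E-box here overlaps another.
Ogn: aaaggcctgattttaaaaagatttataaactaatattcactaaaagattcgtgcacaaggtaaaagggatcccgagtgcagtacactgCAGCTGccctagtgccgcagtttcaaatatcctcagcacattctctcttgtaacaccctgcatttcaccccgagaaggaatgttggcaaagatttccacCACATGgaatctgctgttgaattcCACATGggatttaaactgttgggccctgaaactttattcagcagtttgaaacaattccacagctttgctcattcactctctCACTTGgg
Angptl7: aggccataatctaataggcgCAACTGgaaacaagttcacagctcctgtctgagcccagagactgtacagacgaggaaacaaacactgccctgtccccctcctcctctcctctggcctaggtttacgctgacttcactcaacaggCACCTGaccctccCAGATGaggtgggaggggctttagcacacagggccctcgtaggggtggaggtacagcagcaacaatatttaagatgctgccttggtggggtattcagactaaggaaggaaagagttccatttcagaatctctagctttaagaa
Omd: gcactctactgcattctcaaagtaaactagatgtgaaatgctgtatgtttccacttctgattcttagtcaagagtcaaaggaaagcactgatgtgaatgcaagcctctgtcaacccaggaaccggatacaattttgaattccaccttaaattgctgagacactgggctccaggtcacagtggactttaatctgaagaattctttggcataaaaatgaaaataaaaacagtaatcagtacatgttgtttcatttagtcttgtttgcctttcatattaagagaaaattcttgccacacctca
The Ogn window held 4 E-boxes, starting at base -162 (CAGCTG), -63 and -39 (both CACATG) and 43 (CACTTG), counted from the start as 1. The Angptl7 window held 3, at -230 (CAACTG), -106 (CACCTG) and -93 (CAGATG). No E-box was in the windows of Omd and Ecm2. Of the others, the windows of Aspn, Angptl2 and Angptl6 held 2, 3 and 1, and 7 of the 8 genes had a listed promoter, Angptl4 being the other. An E-box was in 72.31% of the 32851 promoters of this length, at least 3 in 17.61% and at least 4 in 6.487%. These are matches to letters, and binding was not measured.

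Osteoglycin showed the widest range of the 4 genes at the locus. Ogn read 4.23, 5.37 and 3.99 in VEC (replicates A, B and C) and 10.62, 6.37 and 9.30 in WT. It read 3.17, 6.07 and 3.70 in AQA, 2.97, 4.18 and 3.32 in DQD and 4.0, 4.15 and 4.13 in F191G. All WT arrays lay above every other array, but WT replicate B was only 0.304 above AQA replicate B, the highest array of the other groups. The group means were 8.77 ± 2.18 in WT, 4.53 ± 0.73 in VEC, 4.31 ± 1.54 in AQA, 4.09 ± 0.08 in F191G and 3.49 ± 0.62 in DQD. Neighbouring groups below WT in this order overlapped.

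As a description, since this contrast chose the gene, Ogn stood 4.24 higher in WT than in VEC (SE 0.912), an 18.8-fold difference. The value was 3.70 within batch A and 5.31 within batch B, where VEC and WT have 1 array each. It was 3.26 without WT replicate A, 5.49 without WT replicate B and 2.52 with array weights. The mutant forms stood below WT, at differences of -4.45 (AQA), -5.27 (DQD) and -4.67 (F191G), also descriptions, because they use the same WT arrays. Without WT replicate B and AQA replicate B, an alternative chosen after seeing the data, the AQA difference from WT was -6.53.

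Omd, whose product is a keratan sulfate proteoglycan first described in bone, followed in the same arrays at a smaller size. It read 4.38, 4.60 and 4.53 in VEC and 6.26, 4.81 and 5.33 in WT. The values were 3.90, 4.75 and 3.91 in AQA, 3.87, 4.25 and 4.15 in DQD and 4.15, 4.50 and 4.29 in F191G. WT replicate A was again the highest array, and WT replicate B exceeded AQA replicate B by 0.058. Means were 5.47 ± 0.74 in WT, 4.50 ± 0.11 in VEC, 4.31 ± 0.18 in F191G, 4.19 ± 0.49 in AQA and 4.09 ± 0.20 in DQD, and neighbours below WT in this order overlapped, though VEC and DQD did not. The WT mean was 0.97 above VEC (SE 0.302), 0.55 without WT replicate A and 1.31 without WT replicate B.

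Aspn and Ecm2, between Omd and the outer end of the cluster, spanned less than 1 log2 unit over the 15 arrays. Both read near the low end of the arrays. Their means of 3.06 and 3.02 stood at the 4.0 and 3.8 percentiles of all genes, whose median was 6.36. Ogn and Omd stood at the 25.3 and 16.9 percentiles. Whether values as low as those of Aspn and Ecm2 follow their RNA was not tested. Aspn, whose product binds collagen and TGF-beta, read 3.15, 3.20 and 3.54 in VEC, 3.00, 3.23 and 2.89 in WT, 3.17, 3.09 and 3.13 in AQA, 3.00, 2.86 and 2.89 in DQD and 2.91, 2.76 and 3.05 in F191G. The highest array was VEC replicate C, and all DQD and F191G arrays lay below all VEC arrays. Aspn differed between WT and VEC by -0.26 (SE 0.114), with overlapping groups, by -0.06 within batch A, by -0.66 within batch B and by -0.11 without VEC replicate C.

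Ecm2 read 2.94, 2.92 and 2.90 in VEC, 3.45, 3.15 and 3.04 in WT, 2.77, 2.99 and 3.03 in AQA, 3.03, 3.00 and 3.03 in DQD and 2.90, 2.96 and 3.13 in F191G. WT replicate A was the highest array, and WT lay 0.29 above VEC (SE 0.102) without overlap, and 0.16 above it without WT replicate A. Among the 4 genes at the locus the difference between WT and VEC thus ran from -0.26 in Aspn to 4.24 in Ogn, with Omd at 0.97.

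**Figure D1:**
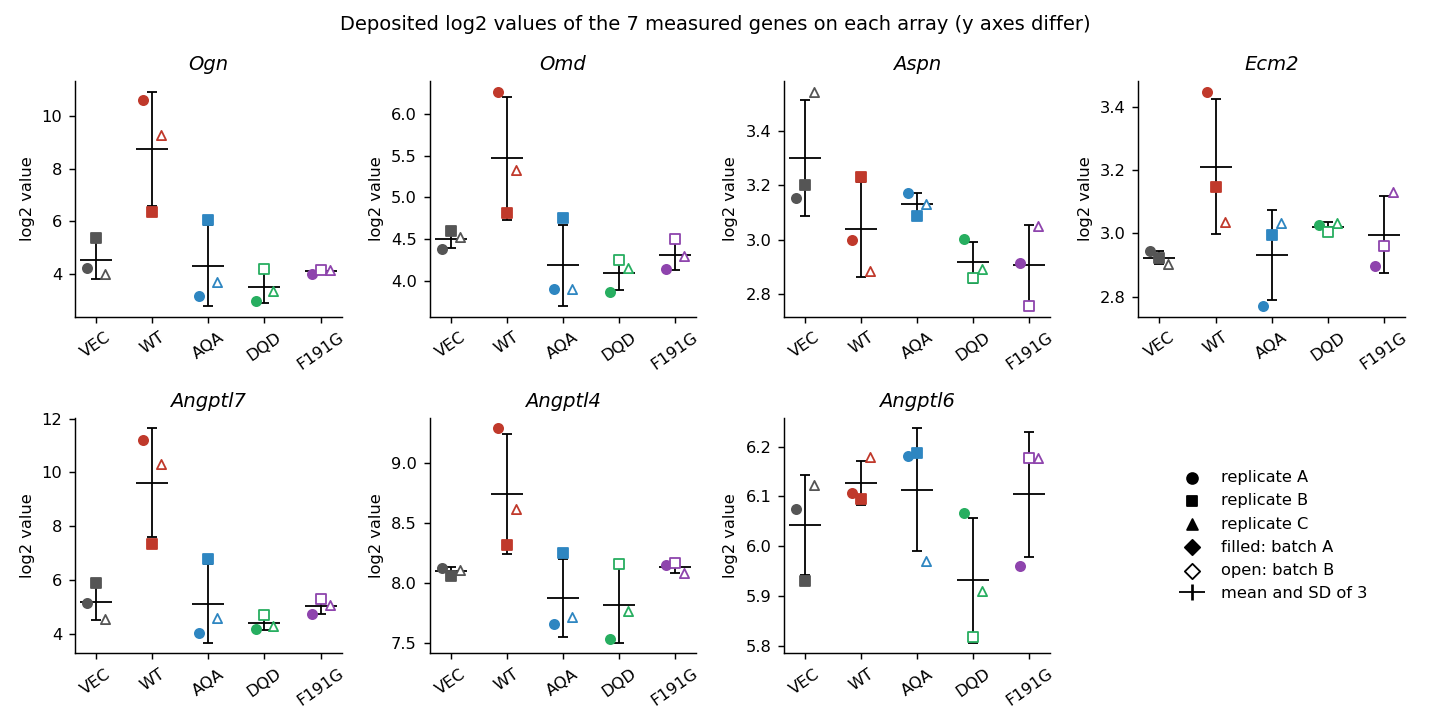
Deposited log2 values of the 7 measured genes on each of the 15 arrays, by group, with bars for mean and SD of 3, filled symbols for batch A and open ones for batch B (y axes differ). For Ogn and Angptl7 the WT arrays lie above all others, with WT replicate B lowest in its group and AQA replicate B highest in its own.

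Among the angiopoietin-like factors, Angptl7 came closest to Ogn. It read 5.15, 5.89 and 4.55 in VEC and 11.20, 7.35 and 10.31 in WT. It read 4.02, 6.77 and 4.57 in AQA, 4.18, 4.69 and 4.29 in DQD and 4.72, 5.30 and 5.06 in F191G. As for Ogn, WT replicate A was the highest array, WT replicate B the lowest of its group and AQA replicate B the highest array outside WT, with a gap of 0.581 between these replicate B arrays. Group means ran from 9.62 ± 2.01 in WT through 5.20 ± 0.67 in VEC, 5.12 ± 1.46 in AQA and 5.02 ± 0.29 in F191G to 4.39 ± 0.27 in DQD, and below WT only F191G and DQD, next to each other in this order, did not overlap.

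The Angptl7 difference between WT and VEC, again a description, was 4.42 (SE 0.837), or 21.4-fold. Within batch A it was 3.75 and within batch B 5.76. It came to 3.59 without WT replicate A, to 5.62 without WT replicate B and to 2.86 with array weights. The differences of the mutant forms from WT were -4.50 (AQA), -5.23 (DQD) and -4.60 (F191G), and that of AQA was -6.46 without WT replicate B and AQA replicate B.

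Angptl4, the lipase inhibitor, read 8.13, 8.05 and 8.11 in VEC and 9.29, 8.32 and 8.62 in WT. It read 7.65, 8.25 and 7.71 in AQA, 7.53, 8.16 and 7.77 in DQD and 8.15, 8.17 and 8.08 in F191G. WT lay above all other groups without overlap, with a gap of 0.069 to AQA replicate B, while the VEC and F191G arrays lay between 8.05 and 8.17. The WT mean of 8.74 ± 0.50 was 0.65 above the VEC mean of 8.10 ± 0.04 (SE 0.223), and 0.36 above it without WT replicate A. The order below WT was F191G (8.13 ± 0.05), VEC, AQA (7.87 ± 0.33) and DQD (7.82 ± 0.32), with overlap between all neighbours.

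Angptl6 differed least, with all 15 arrays between 5.82 (DQD replicate B) and 6.19 (AQA replicate B). Its group means were 6.13 ± 0.04 in WT, 6.11 ± 0.12 in AQA, 6.10 ± 0.13 in F191G, 6.04 ± 0.10 in VEC and 5.93 ± 0.13 in DQD, all neighbours overlapping. WT and VEC differed by 0.08 (SE 0.090). Within the family the difference between WT and VEC thus ran from 0.08 in Angptl6 to 4.42 in Angptl7.

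The WT and VEC arrays did not overlap for 5 of the 7 genes (Ogn, Omd, Ecm2, Angptl7 and Angptl4), against 31.6% of all genes, and 12.8% of all genes were called at an adjusted p under 0.05 in this contrast. Since the rule of choice used this contrast, nothing is read from the count. The median difference was 0.65 over the 7 genes and -0.01 over all genes. For AQA, DQD and F191G against WT, 0.726%, 24.5% and 7.13% of all genes were called, and these contrasts were not tested for the 7 genes either. In these bulk samples, more cells that express a gene and more RNA of it per cell cannot be told apart.

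Comparisons between groups other than WT test whether a mutant form leaves these genes apart from the empty vector or from another mutant. They are limma tests adjusted over all 19297 genes. Those against VEC share the VEC arrays with each other and with the contrast that chose the genes. All come from 1 fit of the 15 arrays, so the WT arrays enter their spread and batch term. Against VEC, 0 of the 7 genes were called with AQA (background 0.881% of all genes), 0 with DQD (0.814%) and 0 with F191G (0.0985%). At an unadjusted p under 0.05 the counts were 0, 1 and 1, the 1 being Aspn each time. Of all 19297 genes, 3030, 4628 and 2263 passed that mark, so nothing is read from these counts. The intervals, more than those counts, show what this model can resolve for each gene, given a spread that includes the WT arrays.

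For Ogn the difference from VEC was -0.22 in AQA (95% interval -2.19 to 1.75, limma adjusted p = 0.932). In DQD it was -1.04 (-3.06 to 0.98, limma adjusted p = 0.520) and in F191G -0.44 (-2.46 to 1.58, limma adjusted p = 0.904). The intervals of AQA and F191G include a 2-fold difference in either direction. Without AQA replicate B, the AQA value was -1.14 (limma adjusted p = 0.532), and without WT replicate B and AQA replicate B it was -1.08 (limma adjusted p = 0.291). Ogn thus kept its side of the threshold, with a value that depends on that array.

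Angptl7 differed from VEC by -0.08 in AQA (-1.89 to 1.73, limma adjusted p = 0.975), by -0.81 in DQD (-2.66 to 1.05, limma adjusted p = 0.591) and by -0.17 in F191G (-2.03 to 1.68, limma adjusted p = 0.966). Within batch A the F191G value was -0.81 and within batch B 0.63, so its sign differed between batches. Batch A holds 1 F191G array and batch B 1 VEC array, so each value rests on a single array on 1 side. The AQA value was -0.95 without AQA replicate B (limma adjusted p = 0.567) and 0.50 without AQA replicate A (limma adjusted p = 0.860), so 1 array sets its sign. Omd differed by -0.32 in AQA (-0.97 to 0.34, limma adjusted p = 0.640), by -0.41 in DQD (-1.08 to 0.26, limma adjusted p = 0.435) and by -0.19 in F191G (-0.86 to 0.48, limma adjusted p = 0.866). Without AQA replicate B the Omd value in AQA was -0.61 (limma adjusted p = 0.331). Omd was below its VEC mean in every mutant group, and only the DQD arrays lay wholly below the VEC arrays, as for 22.1% of all genes.

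For Angptl4 the differences were -0.22 in AQA (-0.71 to 0.26, limma adjusted p = 0.652), -0.28 in DQD (-0.77 to 0.21, limma adjusted p = 0.475) and 0.04 in F191G (-0.46 to 0.53, limma adjusted p = 0.972), with -0.42 in AQA without AQA replicate B (limma adjusted p = 0.373). Ecm2 differed from VEC by at most 0.10, and Angptl6 by values from -0.11 to 0.07, over the mutant groups. Aspn, at the 4.0 percentile of all genes by mean level, was the gene nearest to the threshold. It differed by -0.38 in DQD (SE 0.116, -0.64 to -0.13, limma adjusted p = 0.0868) and by -0.39 in F191G (SE 0.116, -0.65 to -0.14, limma adjusted p = 0.229). Every DQD and F191G array lay below every VEC array, as for 22.1% and 13.3% of all genes. Without VEC replicate C, the highest Aspn array, the differences became -0.20 (limma adjusted p = 0.406) and -0.21 (limma adjusted p = 0.835). In AQA the Aspn value was -0.17 (limma adjusted p = 0.493).

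The mutant forms were also compared with one another. Their group means share no array with the contrast that chose the genes. Their spread and batch term still come from the fit of all 15 arrays. Of the 7 genes, 0 were called between DQD and AQA (background 0.0259% of all genes), 0 between F191G and AQA (0.0104%) and 0 between F191G and DQD (0.00518%). In each comparison 0 had an unadjusted p under 0.05, beside 2811, 2143 and 1746 of all 19297 genes. Ogn differed by -0.82 between DQD and AQA (-2.84 to 1.20, limma adjusted p = 0.717), by -0.22 between F191G and AQA (-2.24 to 1.80, limma adjusted p = 0.968) and by 0.60 between F191G and DQD (-1.37 to 2.57, limma adjusted p = 0.858). Without WT replicate B and AQA replicate B the values against AQA turned positive, to 0.08 in DQD (limma adjusted p = 0.977) and 0.68 in F191G (limma adjusted p = 0.690). The Angptl7 values against AQA were -0.73 in DQD (limma adjusted p = 0.725) and -0.10 in F191G (limma adjusted p = 0.984), and also turned positive without these arrays, to 0.11 and 0.75 (limma adjusted p = 0.958 and 0.504). For Angptl7 the F191G arrays lay above the DQD arrays by 0.63 (-1.18 to 2.44, limma adjusted p = 0.834) without overlap, as for 10.0% of all genes. In this model the intervals between mutants for Ogn and Angptl7 all include a 2-fold difference in either direction. The model takes 1 spread per gene from all 15 arrays, WT included (SD 2.18 for Ogn and 2.01 for Angptl7 in WT). The mutant arrays themselves could be closer together, with Angptl7 SDs of 0.29 in F191G and 0.27 in DQD. Fits of only the arrays compared also called 0 of the 7 genes between mutants.

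**Figure D2:**
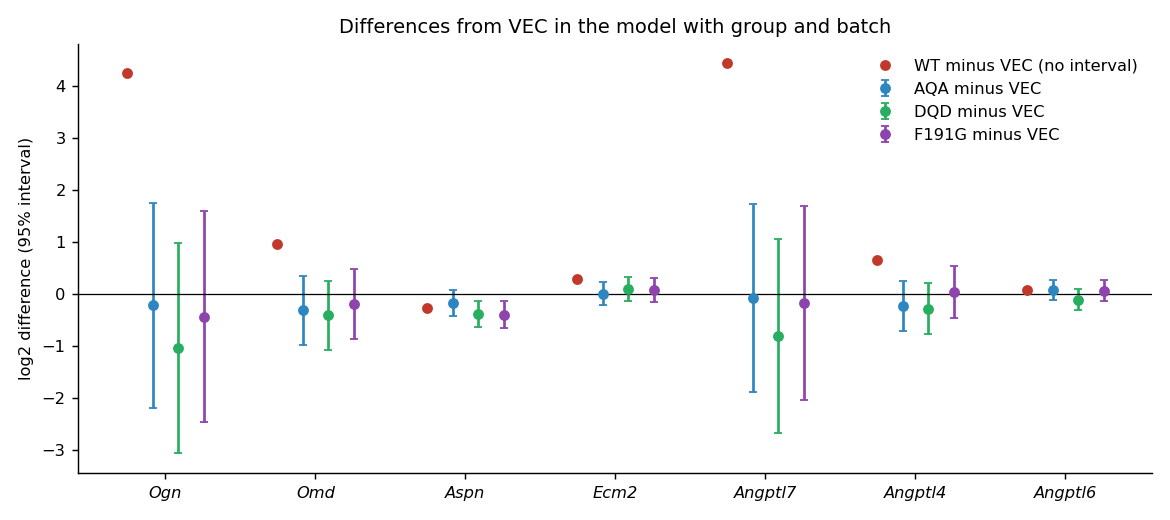
Log2 difference of each Twist1 form from VEC for the 7 measured genes, as points, with 95% intervals for AQA, DQD and F191G from the model with group and batch. The WT points carry no interval because WT against VEC chose the genes. The intervals of the mutant forms cross 0 except those of Aspn in DQD and F191G.

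Outside WT the genes still varied between arrays, and this variation was compared over the 12 arrays of VEC, AQA, DQD and F191G, for the 6 other genes against Ogn. Angptl7 followed Ogn most closely, with Pearson r = 0.967 (two-sided permutation p = 2e-05, the smallest that 100000 resamples can give, 0.00012 after Benjamini-Hochberg over the 6 relations). Its Spearman rho was 0.930 (permutation p = 4e-05, adjusted 0.00024). Without AQA replicate B and VEC replicate B, the arrays farthest from the median of Ogn, r was 0.8725, so the relation does not rest on these arrays. It was 0.988 over the 6 arrays of batch A and 0.752 over the 6 of batch B, and 0.966 after group means were taken away.

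Omd came next, with r = 0.859 (permutation p = 0.00018, adjusted 0.00054) and rho = 0.832 (permutation p = 0.00132, adjusted 0.00396). It held at 0.7845 without the farthest arrays, with 0.983 in batch A and 0.567 in batch B. Angptl4 reached r = 0.737 (permutation p = 0.0006, adjusted 0.0012) and rho = 0.769 (permutation p = 0.00486, adjusted 0.00972), and 0.947 without the farthest arrays, with 0.812 and 0.886 in the batches. Aspn, Ecm2 and Angptl6 stood apart from these, with r of 0.121, 0.058 and 0.091 (permutation p = 0.654, 0.874 and 0.791). The permutations behind these p-values, those of Angptl7 included, treat arrays as independent, which the labels do not show. They shuffle over groups, batches and replicate letters alike, so the p-values cannot set apart a shift shared by same-letter arrays. The VEC arrays among the 12 also took part in choosing Ogn and Angptl7.

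By rank among 16967 named genes over those 12 arrays, Angptl7 was the gene most correlated with Ogn, Omd was at rank 24 and Angptl4 at rank 155. The WT arrays were not used for these ranks, but the VEC arrays, which also took part in choosing the genes, were. Replicate B was the highest array of its group for Ogn, Angptl7 and Omd in VEC, AQA, DQD and F191G and the lowest of its group in WT. What the B arrays share is not given in the labels beyond the letter, and its part in the relation was not tested.

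**Figure D3:**
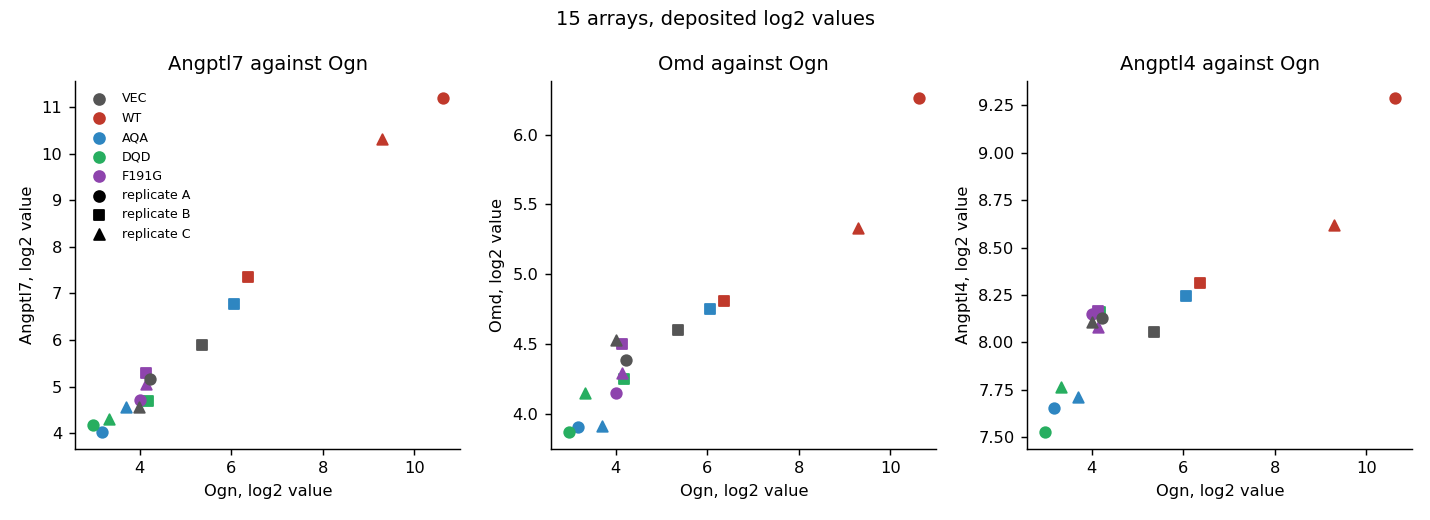
Log2 values of Angptl7, Omd and Angptl4 against those of Ogn on the 15 arrays, coloured by group, with a symbol for each replicate letter. WT replicate B and AQA replicate B lie next to each other between the other WT arrays and the rest, and the 12 arrays outside WT also rise together (r = 0.967, 0.859 and 0.737).

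Over all 15 arrays, which is a description since it includes the WT arrays, Angptl7 was first among 16968 named genes by its correlation with Ogn (r = 0.995), Omd was at rank 18 (r = 0.961) and Angptl4 at rank 175 (r = 0.916). Apart from the 8 genes, the 8 most alike to Ogn were Glrb, a glycine receptor subunit gene (r = 0.977), the haemoglobin-binding acute-phase gene Hp (0.976), Phyhd1 (0.971), the acyl-CoA synthetase family gene Acsf2 (0.970), the G protein gene Gnao1 (0.967), the small GTPase gene Rac3 (0.967), the cytokine feedback gene Cish (0.965) and Izumo4 (0.965). Those most alike to Angptl7 were again Glrb (0.978), Hp (0.972) and Gnao1 (0.969), with the lipoprotein receptor gene Lrp1 (0.974), the Mad family gene Mxd4 (0.966), the amylase gene Amy1 (0.965), Rilp (0.964) and the prostate gene Slc45a3 (0.964). Glrb read 7.33, 5.21 and 6.13 in WT replicates A, B and C and 5.18 in AQA replicate B, and Hp 8.86, 6.67 and 7.57 in WT and 6.70 in AQA replicate B. For both genes WT replicate B was the lowest WT array, as for Ogn and Angptl7, but for Hp it lay below AQA replicate B, where for Ogn and Angptl7 it lay above.

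The chromosomal neighbours were read next. Of the 10 nearest measured genes around the cluster, 0 rose and 3 fell in WT against VEC, beside 1362 and 1104 of all 19297 genes. With 10 genes, these counts cannot tell whether the Ogn difference extended along the chromosome. Those that fell were Cenpp, Ippk (inositol phosphate kinase) by 0.27 and the dynein adaptor gene Bicd2 by 0.26. Cenpp, whose span holds the whole cluster, read 7.01, 6.54 and 6.87 in VEC and 5.16, 6.26 and 5.87 in WT. All its WT arrays lay below all its VEC arrays, as for 16.4% of all genes, and it fell by 1.05 (SE 0.231, limma adjusted p = 0.0152). The call was kept in 4 of 6 fits that each left out 1 of these arrays, and lost without VEC replicate A (-0.94, limma adjusted p = 0.0533) or VEC replicate C (-1.01, limma adjusted p = 0.0867). Against VEC Cenpp was at 0.05 in AQA, -0.03 in DQD and 0.06 in F191G, with limma adjusted p of 0.941, 0.954 and 0.960. Nol8, next to Ogn on the other side, read 9.13 ± 0.06 in VEC and 8.93 ± 0.15 in WT (limma adjusted p = 0.127).

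**Figure D4:**
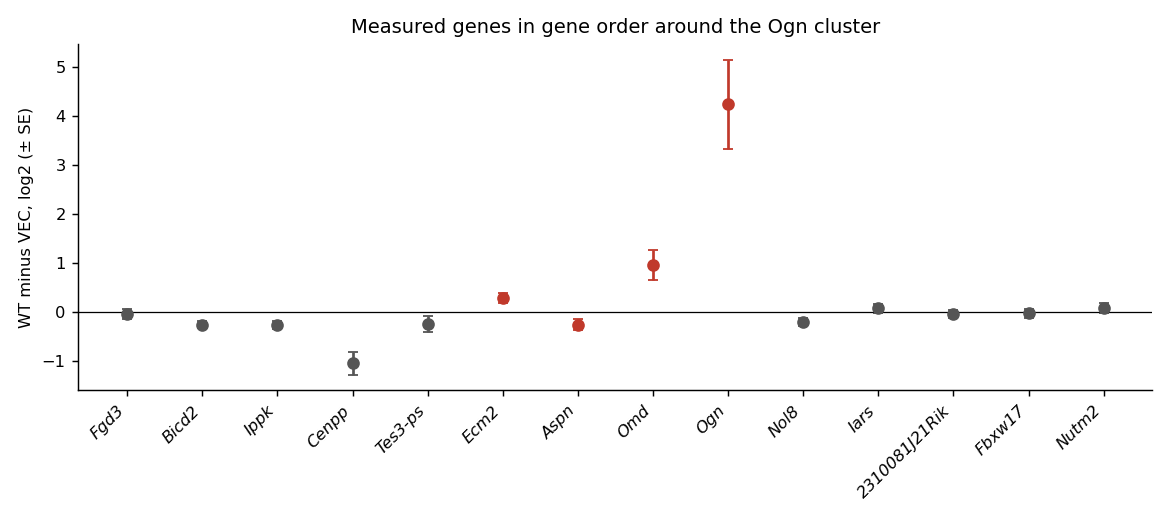
WT minus VEC log2 difference with its SE for the 14 measured genes in gene order around the Ogn cluster, with the 4 cluster genes in red and neighbours in grey. Ogn is at 4.24 and Omd at 0.97, and Cenpp, whose span holds the cluster, is at -1.05.

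Around Angptl7, 1 of 10 neighbours rose and 0 fell: the F-box gene Fbxo44, by 0.71 (SE 0.160, limma adjusted p = 0.0158), and by 0.65 without VEC replicate C (limma adjusted p = 0.0947). Mtor, which spans Angptl7, read 8.64 ± 0.13 in VEC and 8.97 ± 0.21 in WT (limma adjusted p = 0.0594). Over all 50 neighbours of the 5 loci, 3 rose and 5 fell, 16% against 12.8% of all genes. In AQA, DQD and F191G against VEC 0 were called. At an unadjusted limma p under 0.05 there were 8, 12 and 7, beside 3030, 4628 and 2263 of all 19297 genes. The others called in WT were Niban2 (-0.38) and Pbx3 (-0.27) beside Angptl2, Pram1 (0.28) beside Angptl4 and S1pr2 (0.27) beside Angptl6. S1pr2, a sphingosine phosphate receptor gene, was also higher in F191G than in DQD by 0.54 (limma adjusted p = 0.0239), a call that was lost whenever any 1 of those 6 arrays was left out. The 8 calls in WT depended on single arrays, with 0 left on omitting VEC replicate C, 2 on omitting WT or VEC replicate A, and 13 on omitting WT replicate B.

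Related genes were then read from 6 lists written for these families, 84 measured genes in all. In WT against VEC 8 rose and 6 fell, 16.7% against 12.8% of all genes, with medians of 0.00 and -0.01. Of 13 other small leucine-rich proteoglycans 0 rose and 1, Nyx, fell by 0.34 (limma adjusted p = 0.0277). Of all 19297 genes, 1362 rose and 1104 fell, so nothing is read from these small counts. Decorin (Dcn) read 4.97 ± 0.11 in VEC and 4.90 ± 0.11 in WT, biglycan (Bgn) 5.47 ± 0.05 and 5.53 ± 0.06, and lumican (Lum) 3.16 ± 0.06 and 3.10 ± 0.04. Of 9 other angiopoietins, angiopoietin-like and fibrinogen-like factors and Tie receptors, 0 were called by limma (1 at an unadjusted p under 0.05, beside 5329 of all 19297 genes).

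In the list of lipases, genes that serve lipases, and receptors for angiopoietin-like factors, 1 of 10 rose and 2 fell. The lipase maturation factor gene Lmf1, itself neither a lipase nor a receptor gene, rose by 0.42 (limma adjusted p = 0.0192). The integrin genes Itga5 and Itgb3 fell by 0.58 and 0.69. The lipoprotein lipase gene Lpl read 4.66 ± 0.17 in VEC and 4.55 ± 0.03 in WT. Of 16 PPAR factors and targets, 2 rose, Ppara by 0.35 (limma adjusted p = 0.0197) and the fatty acid oxidation gene Acadm by 0.49, and 1 fell, the fatty acid binding gene Fabp4, by 0.57. Pdk4, also a PPAR target, read 9.83 ± 0.72 in VEC and 9.86 ± 0.19 in WT.

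In the list of collagen fibrils and their assembly, 2 of 20 rose and 2 fell. Pcolce, whose product enhances procollagen processing, rose from 11.88 ± 0.11 to 12.43 ± 0.12 (difference 0.55, SE 0.082, limma adjusted p = 0.00462), and it was called in all 6 fits that left out 1 VEC or WT array. Bmp1, the protease that Pcolce enhances, rose by 0.39, Loxl3, a lysyl oxidase gene, fell by 0.55 (SE 0.105, limma adjusted p = 0.00992, and 0.0563 without VEC replicate C) and Col12a1 by 0.64. Of 16 TGF-beta and BMP genes 3 rose and 0 fell: Tgfb2 by 1.37 (SE 0.382, limma adjusted p = 0.0350), Tgfb3 by 0.74 and Id3 by 0.86. Tgfb2 kept its call in 1 of the 6 fits, that without WT replicate B, and stood at 0.84 without WT replicate A (limma adjusted p = 0.108). Tgfb3 kept its call in 3 fits and Id3 in 2.

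Against VEC, the mutant forms gave these calls among the 84 genes: 1 with AQA, or 1.19% (Loxl3, which fell by 0.58, limma adjusted p = 0.0312, kept in 2 of 6 fits), 0 with DQD and 0 with F191G, beside 0.881%, 0.814% and 0.0985% of all genes. Of the 84 genes, 14, 31 and 7 had an unadjusted limma p under 0.05, beside 3030, 4628 and 2263 of all 19297 genes. Against WT, 1 was called in AQA (Pcolce, at -0.40, limma adjusted p = 0.0490), 25 in DQD (6 higher, 19 lower) and 5 in F191G (1 higher, 4 lower). These are 1.19%, 29.8% and 5.95% of the 84 genes, beside 0.726%, 24.5% and 7.13% of all genes. Between mutants 0 were called, with 19 (DQD and AQA), 12 (F191G and AQA) and 8 (F191G and DQD) at an unadjusted limma p under 0.05. Of all 19297 genes, 2811, 2143 and 1746 passed that mark. The 14 calls of WT against VEC depended on single arrays too, with 3 on omitting WT replicate A, 2 on omitting VEC replicate C and 15 on omitting WT replicate B. With WT replicate B and AQA replicate B both omitted, 17 were called.

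Markers of other cells were read because Ogn and its neighbours are best known from connective tissue. Of 10 fibroblast markers 0 were called in any form against VEC. At an unadjusted limma p under 0.05 there were 1, 2, 6 and 1 in WT, AQA, DQD and F191G, beside 5329, 3030, 4628 and 2263 of all 19297 genes. The mean of these markers per array ran from 5.51 to 5.51 in VEC, 5.48 to 5.53 in WT, 5.40 to 5.49 in AQA, 5.18 to 5.43 in DQD and 5.38 to 5.42 in F191G. Of the 6 bone and cartilage and 7 endothelial markers measured 0 were called, of 6 adipocyte markers Fabp4 fell, and of 7 haematopoietic markers Cd68 rose by 0.61 in WT (limma adjusted p = 0.0269). Cd68 kept its call in 3 of 6 fits, and stood at 0.43 without WT replicate A (limma adjusted p = 0.0992). Against WT, DQD gave 4 of 10 fibroblast, 3 of 7 haematopoietic, 1 of 7 endothelial and 1 of 7 epithelial and prostate markers called lower. In that contrast 1 of 6 adipocyte markers was called higher and 0 of 6 bone and cartilage markers were called. Of all 19297 genes, 2463 were called lower and 2272 higher, together 24.5%. The part of these markers in the Ogn and Angptl7 values was not tested. The haematopoietic mean ran from 5.08 to 5.24 in WT and from 5.00 to 5.12 in VEC. Of the 7 epithelial and prostate markers measured, 0 were called in any form against VEC. Over the 15 arrays Krt8 read 7.35 to 8.89, Krt14 5.44 to 6.81, Krt18 5.58 to 6.04 and Krt5 5.45 to 6.01. Cdh1 read 5.40 to 5.75, Epcam 4.82 to 5.15 and the prostate gene Pbsn 2.05 to 2.24. No detection calls were used here, so no marker can be called absent.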

How the data were processed

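The deposited log2 values are of 23811 probe sets on 15 arrays. Per the submitters' processing notes, the authors made them with RMA and used limma, versions not given, and the design text speaks of scaling by the Twist1 level in a form not stated. The probe set with the highest mean was kept per gene where a gene had several (846 genes), which left 19297 genes. All arrays entered 1 limma model (limma 3.58.1, R 4.3.3) with group and batch (8 arrays in A, 7 in B), and genes were called at a Benjamini-Hochberg adjusted p under 0.05. The 8 genes and all lists were chosen with earlier results of these data known. Of the 8 genes, Ogn and Angptl7 were chosen on their WT against VEC values, and the others as neighbours or relatives of these. The contrasts of all these genes with WT arrays are therefore untested. The lists were tested there, and their calls are not independent support. Named genes are the 8, the 8 most alike to Ogn and to Angptl7, called list genes or up to 3 others of a list, neighbours and Twist1. Bgn, Dcn, Lum, Lpl and Pdk4 were named outside this rule, after their values were seen, as well-known list members. Same-letter arrays deviated together (every r over 0.1) in 1 of 10 group pairs, DQD with F191G. Permutation tests used scipy 1.17.1. Alternatives were 29 planned settings and 1 added after seeing the data.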

Additional observations from a re-analysis of the deposited data

How the results depend on the processing

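Of the 7 genes, 0 were called in the 6 tested comparisons under the settings run, with 1 exception (without the dimmest genes only Angptl7, Angptl4 and Angptl6 were tested): in a model without batch, 1 was called in DQD against VEC, Aspn at -0.38 (limma adjusted p = 0.0477). With array weights the WT minus VEC difference was 2.52 for Ogn and 2.86 for Angptl7. Leaving out 1 array at a time, it ran from 3.26 to 5.49 for Ogn and from 3.59 to 5.62 for Angptl7. Ecm2 in F191G against WT was 0.0101 within batch B and -0.21 over all arrays, and the cause was not tested. The count of list genes called between WT and VEC ran from 2 to 15 and that of neighbours from 0 to 13 when 1 array was left out, and 17 list genes were called without WT replicate B and AQA replicate B. With the replicate block and batch, Ogn in DQD against VEC was -1.19 (limma adjusted p = 0.594), and no call on the 7 genes changed. Precision is limited by 3 arrays per group and, for Ogn and Angptl7, by the spread within WT and AQA, and no detection calls were used.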
